A study of Homo sapiens with 3 samples.

Results

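The microRNA gene MIR1307 gives a single hairpin with a mature miRNA on each side of its loop, hsa-miR-1307-5p and hsa-miR-1307-3p, and the counts of both arms were followed here through 3 small RNA libraries. These 2 names, of 1921 in every count table, were found by exact match. They were chosen by measured values, their CPM (reads per 1000000 counted reads of the library) and their 5p to 3p ratio in these libraries, so both are given as a description and no test is made of them. All libraries came from the human liver cancer line HCCLM3 (hepatocellular carcinoma), grown in DMEM with no treatment named. The parent strain was labelled low metastasis, subclone1 was labelled with a higher metastatic ability specific to the lung, and subclone2 with a dual ability for the lung and the celiac lymph node. According to the study, its clones were grown from single cells of lung and lymph node metastases in nude mice that carried a red fluorescent form of HCCLM3, which it calls highly metastatic. The labels do not say which clones subclone1 and subclone2 are. Each strain had 1 library made from 1 ug of total RNA, so no difference below has a replicate check and no p-value is given.

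A miRNA hairpin is cut by Drosha in the nucleus and by Dicer in the cytoplasm into a short duplex of its arms. An Argonaute protein keeps 1 strand as the guide, which finds target mRNAs mainly through its seed, and the other strand, the passenger, is mostly degraded. The strand whose 5′ end is less firmly paired, or begins with U or A, tends to be the one kept. The balance of the arms can differ between tissues and tumours, which is called arm usage or arm switching. A change in arm usage can bring another seed into the cell without any change in transcription of the hairpin.

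The mature sequences are printed in 5′ to 3′ direction because the arms would direct Argonaute to different targets, and the capitals mark the seed, bases 2 to 8.
hsa-miR-1307-5p: uCGACCGGaccucgaccggcu
hsa-miR-1307-3p: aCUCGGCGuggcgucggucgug
Both are RefSeq sequences on the minus strand of GRCh38.p14, the 5p arm at chr10:103394341-103394361 and the 3p arm at chr10:103394301-103394322. The 5p arm has 21 bases and begins with U, whereas the 3p arm has 22 bases and begins with A. Both arms are rich in G and C, with 71.4% in 5p and 72.7% in 3p, compared with 56.4% over the hairpin of 149 bases. The 5p sequence repeats its own beginning. A run of 8 bases starts at position 1 and again at position 12, so the seed letters occur in it a second time. In the 3p arm the longest repeated run had 5 bases. In the structure predicted by RNAfold (minimum free energy -54.8 kcal/mol), 16 bases of the 5p arm paired with the 3p arm. Among the first 4 bases of 5p, 2 formed G-C pairs, 1 an A-U pair and 1 was unpaired. Among those of 3p, 1 formed a G-C pair, 1 an A-U pair, 1 a G-U pair and 1 was unpaired.

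No other human miRNA of the RefSeq table shared either seed, out of 2369 other mature names. The longest run of bases in common with any of them was 10 for 5p, with hsa-miR-10396a-3p and hsa-miR-10396b-3p, which are not among the listed names, and 7 for 3p. The arms have at most 4 consecutive bases in common with each other. Of the 1921 listed names 1576 are in that table, and the others were not compared. How the counts treated mismatched reads is not given in the sources used here. The hairpin lies on chromosome 10 at 103394253 to 103394401. In GENCODE release 29 it falls within ATP5MD, which encodes a small subunit of mitochondrial ATP synthase. Of 5 ATP5MD transcripts over this place, 2 have an exon there that is annotated as UTR and covers 142 of the 149 bases, and the others have an intron.

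The parent library held 7902438 counts, subclone1 3570864 and subclone2 4568075, and CPM are relative to these totals. Where no read is counted, the limit (3 counts) is 0.380 CPM for the parent, 0.840 for subclone1 and 0.657 for subclone2. Intervals are exact 95% Clopper-Pearson intervals unless another kind is named, and cover counting error only. Each library is an average over many cells, so more RNA per cell and more cells with the RNA cannot be told apart. As for the cell type, the hepatocyte miRNA hsa-miR-122-5p was low in this liver cancer line, with between 3.94 and 6.71 CPM, and hsa-miR-885-5p had no count. The other hepatocyte markers, hsa-miR-192-5p and hsa-miR-194-5p, were present. All 4 markers summed to 18642 CPM for the parent, 60522 for subclone1 and 69335 for subclone2, nearly all of it hsa-miR-192-5p. The 4 epithelial markers of the miR-200 family summed to 73.1, 108 and 129 CPM. Both sums were lowest in the parent and highest in subclone2, an order that neither arm of miR-1307 had. Their members hsa-miR-192-5p, hsa-miR-200a-3p, hsa-miR-200b-3p and hsa-miR-200c-3p had this order too, but others did not. hsa-miR-122-5p was highest in the parent (6.71 CPM), then subclone1 (5.32 CPM), then subclone2 (3.94 CPM). hsa-miR-194-5p was highest in subclone1, at 271 CPM against 263 CPM for subclone2 and 108 CPM for the parent. This is the order of hsa-miR-1307-5p. hsa-miR-141-3p was lowest in subclone1, at 1.12 CPM against 2.28 CPM for the parent. The 5 blood, 2 endothelial and 2 neuronal markers each summed to at most 2.24 CPM in every library. Each of the last 3 sums was highest in subclone1, with 1.68 CPM for blood and 2.24 CPM for endothelium, and the part of any of these cell types in the differences below was not tested.

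The minor arm was the one that differed. hsa-miR-1307-5p had 47 counts in the parent, with 181 for subclone1 and 45 for subclone2. The parent thus had 5.95 CPM (4.37 to 7.91), subclone1 had 50.7 CPM (43.6 to 58.6) and subclone2 had 9.85 CPM (7.19 to 13.2). Subclone1 stood far above both other libraries, whose intervals overlapped. At the level of the parent, 21.2 counts would have been expected in subclone1 and 27.2 in subclone2.

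The major arm, which carried nearly all reads of the hairpin, differed little. hsa-miR-1307-3p had 6497 counts in the parent, with 3101 for subclone1 and 3265 for subclone2, which is 822 CPM (802 to 842), 868 CPM (838 to 900) and 715 CPM (690 to 740). Subclone1 was highest and subclone2 lowest, and only the intervals of the parent and subclone1 overlapped. By counts, the 3p arm ranked 36 among all names in the parent, with 36 for subclone1 and 37 for subclone2. The 5p arm ranked 221, 108 and 185. Both arms summed to 828, 919 and 725 CPM, so the level of the hairpin's products followed the 3p arm.

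**Figure D1:**
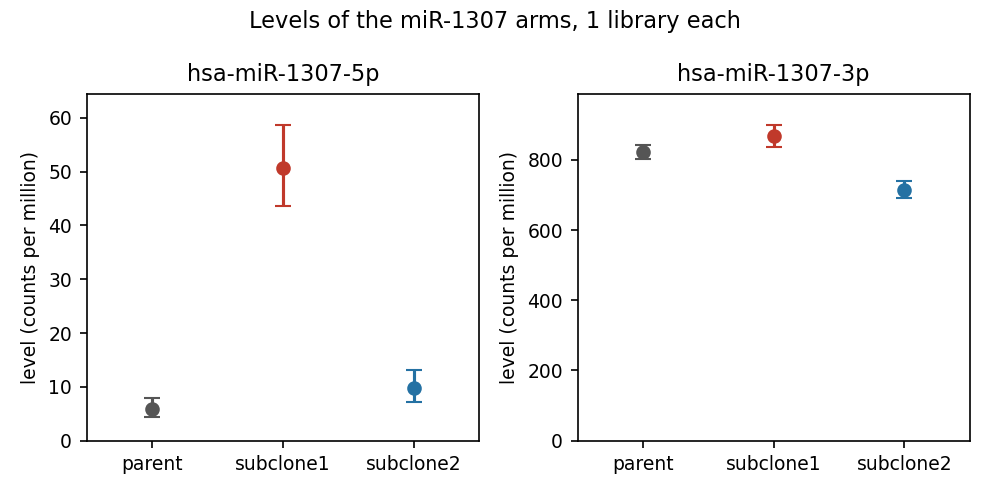
Level in CPM (linear axes from 0) of hsa-miR-1307-5p (left) and hsa-miR-1307-3p (right) in the parent, subclone1 and subclone2 libraries. Points are single libraries and bars are exact 95% intervals for counting error. The 5p arm stood at 50.7 CPM in subclone1 against 5.95 and 9.85 in the others, while the 3p arm lay between 715 and 868 in all.

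The arms were next set against each other within each library, where the scaling to the library total cancels. Of all miR-1307 counts, 5p made up 0.718% (0.528 to 0.954) for the parent, 5.51% (4.76 to 6.35) for subclone1 and 1.36% (0.993 to 1.81) for subclone2. No pair of these intervals overlapped. In other words, 138 reads of 3p were counted for each read of 5p in the parent (104 to 188), compared with 17.1 for subclone1 (14.7 to 20.01) and 72.6 for subclone2 (54.1 to 99.7). Had the 3101 reads of 3p in subclone1 come with 5p at the ratio of the parent, 22.4 reads of 5p would have been counted in place of 181. For the 3265 reads of 3p in subclone2 the number would have been 23.6 in place of 45. The 3p arm thus remained the major one in every library, and the ratio of reads differed without a switch of the leading arm. Adapter ligation favours some RNA ends over others, so the ratio within a library is one of reads and not of molecules, and the comparison is between libraries.

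**Figure D2:**
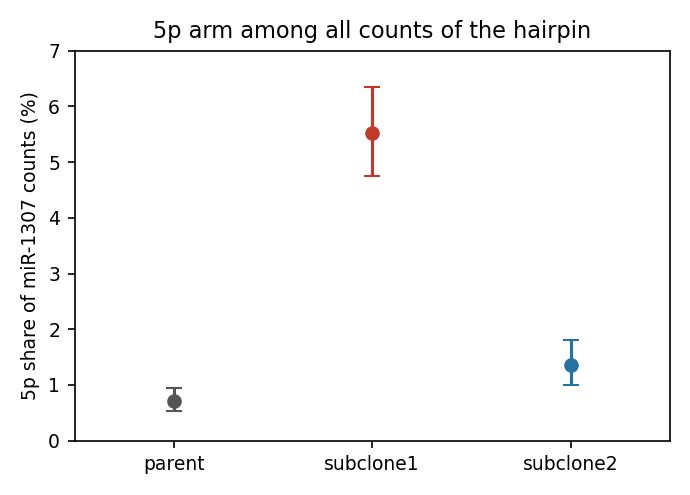
Share of hsa-miR-1307-5p among all counts of both miR-1307 arms, in percent (linear axis from 0), for the 3 libraries. Points are single libraries and bars are exact 95% binomial intervals. The share was 5.51% in subclone1, compared with 0.718% in the parent and 1.36% in subclone2.

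Subclone1, labelled for the lung, was first set against the parent. With 1 library of each strain, a difference that goes with lung tropism cannot be told apart from one of clone or library. Subclone2 was labelled for the lung as well, so this contrast does not single out lung tropism. The level of hsa-miR-1307-5p was 8.46-fold higher in subclone1, a log2 ratio of 3.08 with an exact 95% conditional interval of 2.62 to 3.59. That of hsa-miR-1307-3p was 1.06-fold higher (log2 0.08, interval 0.02 to 0.14). The 5p to 3p ratio was therefore 8.005-fold higher, a log2 change of 3.00 with an exact conditional interval of 2.54 to 3.51. Both arms summed were 1.11-fold higher (log2 0.15, interval 0.09 to 0.21). A difference is called here when it is at least 2-fold and its interval excludes 1, with 0.5 counts added to each count for the log2 value. By this rule 5p was called and 3p was not, where 13% of the 192 miRNAs averaging 10 CPM or more were called, 9.9% higher and 3.12% lower. Just outside and inside that level were hsa-miR-505-3p (9.84 CPM) and hsa-miR-1292 (10.1 CPM). The 5p arm was among the 192 only through its level in subclone1, since its mean over the parent and subclone2 was 7.90 CPM, and this holds for its place in each comparison. The 3.08 of 5p was the largest value among these 192, and the choice of the arm used this contrast. The 3p arm stood at place 85 from the top.

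For subclone2 against the parent, the strain with dual tropism, 5p was 1.66-fold higher (log2 0.73, interval 0.11 to 1.35) and 3p was at 0.869 of the parent level (log2 -0.20, interval -0.26 to -0.14). The median log2 ratio of the 192 miRNAs in this contrast was -0.14 and TMM scaling moved it by 0.17, so the value of 3p lies close to the median miRNA. The 5p to 3p ratio was 1.91-fold higher (log2 0.93, interval 0.30 to 1.55), which is under the 2-fold threshold. None of these values was called, where 10.4% of the miRNAs were called, 5.73% higher and 4.69% lower. The comparisons with the parent share that library, and 47 counts of 5p enter both of them.

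Subclone2 against subclone1 sets the dual label beside the lung label, and tropism again cannot be told apart from clone or library. The log2 ratio was -2.35 for 5p (interval -2.87 to -1.89), so that subclone1 was 5.10-fold higher. For 3p it was -0.28 (interval -0.35 to -0.21), beside a median of -0.16 over the 192 miRNAs, which TMM scaling moved by 0.23. The 5p to 3p ratio was 4.20-fold higher in subclone1 (log2 change -2.07, interval -2.59 to -1.60). Again 5p was called and 3p was not, where 5.73% of the miRNAs were called (3 higher, or 1.56%, and 8 lower, or 4.17%, in subclone2, against 3 and 5 with TMM scaling). The value of 5p was the lowest of the 192, which it had entered through the high level in subclone1. The order of 5p was thus subclone1, subclone2, parent. The intervals in CPM of the last pair overlapped, although that of their ratio excluded 1. The order of 3p was subclone1, parent, subclone2.

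Arm usage in general was examined as the background to these values. Of 508 hairpin names listed with both a -5p and a -3p entry, 75 had at least 30 counts of each arm over the libraries together. miR-1307 was among them, and with 47 counts of 5p it also passes on the parent library alone. The 5p arm led in 44 of the 75 pairs in the parent, with 47 for subclone1 and 44 for subclone2, so miR-1307 belonged to the smaller set led by 3p. Only 3 pairs, miR-222, miR-29a and miR-27a, had a lower 5p share than miR-1307 in the parent, and 3 had a lower one in subclone2. In subclone1 there were 7, since its 5p share of 5.51% had come closer to those of pairs such as miR-148b (3.58%) and miR-221 (6.75%).

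Between subclone1 and the parent, the 5p to 3p ratio was called in 7 of 75 pairs (9.33%), 3 of them higher (4%) and 4 lower (5.33%). The median log2 change over all pairs was -0.13, and the quartiles were -0.60 and 0.38. At 3.00, miR-1307, whose choice used this ratio, had the largest change. It was followed by miR-2355 (2.31, interval 0.63 to 4.39), which rested on 17 and 5 counts of its arms in subclone1, and miR-625 (log2 change 1.86). The largest decreases were in miR-664 (-1.44), miR-34a, whose gene is a p53 target (-1.39), and miR-532 (-1.24). In miR-664 this rested on 11 counts of 3p in the parent and 14 in subclone1 (interval -2.79 to -0.16). In miR-34a it rested on 20 and 12 (interval -2.57 to -0.12). The interval of miR-532 was -1.76 to -0.72. The pairs differed in the arm that moved. In miR-625 the log2 ratio was 0.13 for 5p and -1.73 for 3p, and in miR-2355 it was 0.85 and -1.46. Among the 3 higher pairs, only in miR-1307 was the 5p arm itself at least 2-fold higher. In 5 of the 7 called pairs, miR-1307 included, the less abundant arm was the one with the larger difference. An arm with fewer counts has the larger counting error, and the share over all 75 pairs was not worked out. Nothing is therefore read from this count.

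**Figure D3:**
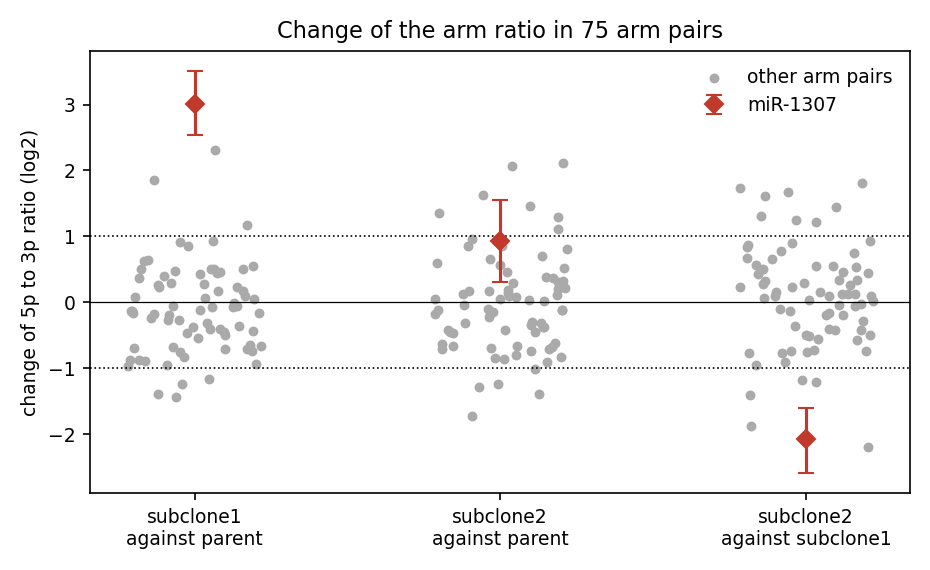
Change of the 5p to 3p ratio (log2, pairs spread sideways for sight) in each comparison of libraries. Grey points are 74 arm pairs and the red diamond is miR-1307 with its exact 95% conditional interval. Dotted lines mark 2-fold. miR-1307 lies at 3.00, 0.93 and -2.07.

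Between subclone2 and the parent, 9 of the 75 ratios were called (12%) and miR-1307 was not. Its value of 0.93 had place 9 from the top, within the range of the other pairs. The largest changes were higher in miR-362 (2.11), miR-454 (2.07) and miR-590 (1.63) and lower in miR-532 (-1.73), miR-139 (-1.39) and miR-222 (-1.23). In miR-362 this rested on 3 counts of its 3p arm in subclone2, in miR-454 on 5 and in miR-590 on 6. In miR-139 it rested on 13 counts of its 5p arm in subclone2. In 8 of the 9 the less abundant arm had the larger difference, a count with the same limit as above. In miR-222, whose 3p arm had 245559 counts in subclone2 beside 12 of 5p, the log2 ratios were -2.19 for 5p and -0.95 for 3p. By fold alone, without the interval, 12 ratios passed (16%), 7 higher (9.33%) and 5 lower (6.67%), and miR-1307 was again not among them.

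Between the subclones 8 ratios were called (10.7%), 4 higher and 4 lower in subclone2 (5.33% each). By fold alone 14 passed (18.7%). miR-1307, whose choice used this ratio too, had the lowest called value. Only miR-2355 was lower (-2.20), and its interval of -5.11 to 0.35 included 0. After miR-1307 came miR-342 (-1.88, interval -4.10 to -0.23) and miR-625 (-1.41). The value of miR-342 rested on 13 counts of 5p in subclone1 and 4 in subclone2. In the other direction came miR-99a (1.82), let-7i (1.68) and miR-31 (1.62). In these last 3 the 5p arm differed by a log2 ratio of at most 0.11, and the 3p passenger had 4, 8 and 7 counts in subclone2. When at least 100 counts of each arm were required, 41 pairs remained and miR-1307 had the largest absolute change both in subclone1 against the parent and between the subclones. The next largest was miR-625, at 1.86 and -1.41. In subclone2 against the parent miR-1307 had place 5 by absolute change. Its 5p arm reached 100 counts only through the 181 of subclone1, where it was high, so these places are a description and no support for its rank.

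**Figure D4:**
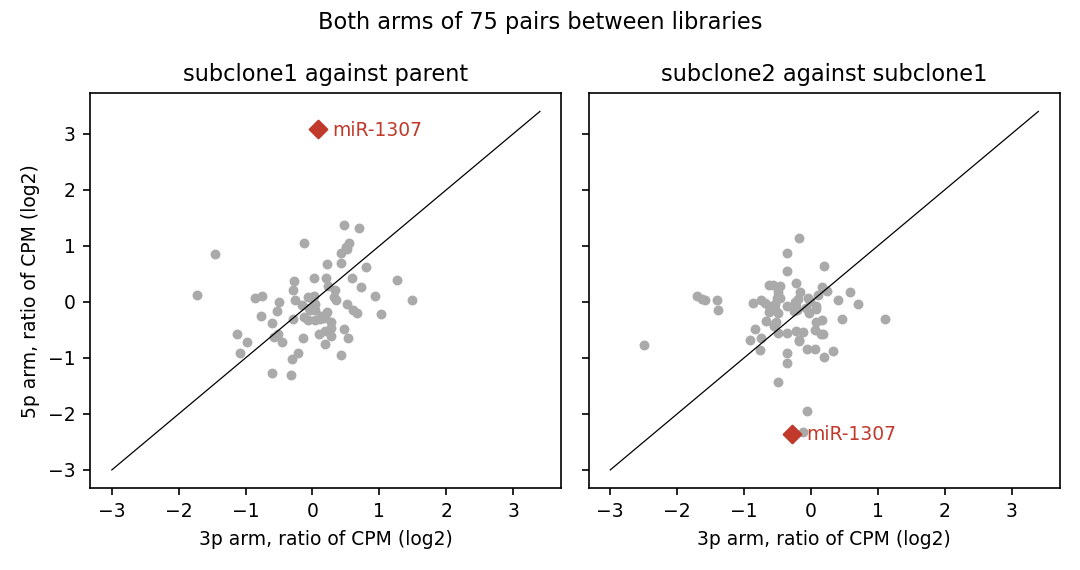
Log2 ratio of CPM of the 3p arm (horizontal) and the 5p arm (vertical) for 75 arm pairs, in subclone1 against the parent (left) and subclone2 against subclone1 (right). Each point is a pair, the line marks equal ratios of both arms, and miR-1307 is red. It lies at 0.08 and 3.08 on the left and at -0.28 and -2.35 on the right.

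A list of 15 hairpins known for keeping both arms was looked at in the same way. All 15 were listed with both arms, and 11 reached 30 counts of each. The remaining 4 were miR-140, miR-324, miR-500a and miR-744, with 4 counts of miR-140-5p, 28 of miR-324-3p, 12 of miR-500a-5p and 1 of miR-744-3p over the libraries. Of the 11, 1 ratio was called in subclone1 against the parent, beside 9.33% of all 75 pairs, and 1 in subclone2 against the parent, beside 12%, in both cases miR-532 and lower. Between the subclones 1 was called, miR-361 (-1.21), beside 10.7%. These counts are near those over all pairs. The medians were 0.17, -0.35 and -0.40, beside -0.13, -0.05 and 0.10 over all pairs. The most abundant pair, miR-423, had a 5p share of 98.1%, 98.2% and 98.3%, and miR-151a, which lies in the PTK2 gene, had 30.2%, 32.7% and 30.6%. The 5p share of miR-339 was 25.4% in the parent, with 39.1% for subclone1 and 30.9% for subclone2. It had the same order of libraries as miR-1307, with a log2 change of 0.91 in subclone1 that was not called.

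Next, the miRNAs with the pattern most like each arm were sought among the other 191 that averaged 10 CPM or more, by the distance between their log2 ratios to the parent in subclone1 and subclone2. This likeness rests on 3 libraries and says little for any 1 miRNA. Nearest to 5p was hsa-miR-331-3p, at a distance of 0.82 beside a median of 3.20. It had 33.8 CPM in the parent compared with 202 for subclone1 and 87.8 for subclone2. hsa-miR-152, of the miR-148 family, followed with 44.9, 141 and 63.05 CPM, and hsa-miR-378c with 8.86, 29.96 and 9.41 CPM. Reads of the last cannot be told with certainty from those of hsa-miR-378a-3p, with which it has a run of 20 bases in common. The muscle miRNA hsa-miR-1 had 6.71, 21.6 and 7.01 CPM and hsa-miR-339-5p 9.24, 24.1 and 14.9 CPM. All were highest in subclone1, which follows from their choice by likeness to 5p. The ratio of 5p there was already the largest of the 192, so none could exceed it.

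**Figure D5:**
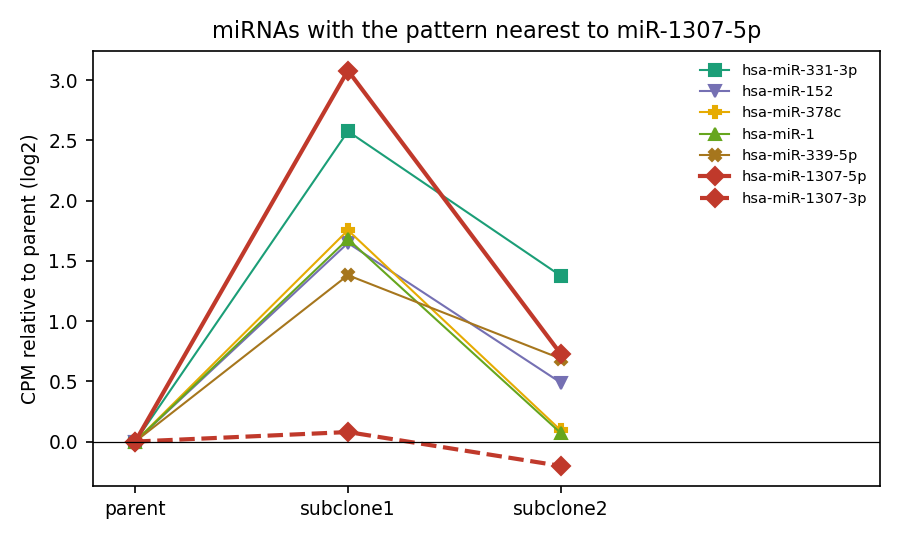
Level relative to the parent (log2 ratio of CPM, 0 in the parent by construction) of hsa-miR-1307-5p, of the 5 miRNAs nearest to it and of hsa-miR-1307-3p, in 3 libraries joined by lines for sight only. The 5p arm reached 3.08 in subclone1 and hsa-miR-331-3p reached 2.58, while hsa-miR-1307-3p lay at 0.08.

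Of the mesenchymal and muscle markers, hsa-miR-1, the only one with more than 8 counts in any library, was highest in subclone1 as the 5p arm was. The 4 markers of that list summed to 22.4 CPM in subclone1, compared with 7.85 for the parent and 7.44 for subclone2. hsa-miR-1 made up nearly all of it, and hsa-miR-133a, which is made with miR-1 in muscle, had 1 count in each library. Of the other members, hsa-miR-143-3p was highest in the parent, with 8 counts there and 1 in each subclone. hsa-miR-145-5p had 1 count, in subclone1. The part of such cells in the difference of 5p was not tested.

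The pattern of hsa-miR-1307-3p was close to that of many miRNAs. The nearest were hsa-let-7d-3p (distance 0.05), hsa-miR-625-5p (0.05) and hsa-miR-423-3p (0.06), with log2 ratios of 0.03, 0.13 and 0.02 in subclone1 and of -0.22, -0.18 and -0.18 in subclone2. The median distance from 3p was 0.52. The arms of miR-1307 thus had unlike neighbours, although they come from the same hairpin.

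Other miRNAs of chromosome 10 were looked at as well. Among the 192 miRNAs, 177 could be placed on a chromosome and 5 besides the arms of miR-1307 lie on chromosome 10 only. The nearest, hsa-miR-146b-5p, is 958 kb away and was highest in the parent, with 98.96 CPM against 74.2 for subclone1 and 43.1 for subclone2. hsa-miR-1287 had log2 ratios of 0.46 and 0.11 to the parent, hsa-miR-107 of 0.16 and -0.03, and hsa-miR-2110 of -0.07 and -0.03. In subclone1 against the parent 1 of these 5 was called, the uncertain hsa-miR-378c (1.75), beside 13% of all 192 miRNAs. It was also called between the subclones (-1.66), beside 5.73%, and hsa-miR-146b-5p was called lower in subclone2 against the parent (-1.20), beside 10.4%.

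Within the miRNAs numbered 1000 and above, most of which had few or no counts, hsa-miR-1307-3p was the most abundant in every library. It held 41.8% of the counts of the 1070 listed names in the parent, with 38.2% for subclone1 and 38.9% for subclone2. hsa-miR-1307-5p had place 34 in the parent, with 8 for subclone1 and 23 for subclone2.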

How the data were processed

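Small RNA was sequenced in 3 libraries, 1 per strain, with the Illumina TruSeq Small RNA kit. The authors deposited unscaled read counts per mature miRNA name, without coordinates. The submitters' processing notes list CASAVA 1.4 and hg19. Adapter trimming, aligner, mismatch limit, miRBase release and handling of multiply matching reads are not given in the sources used here. Sequences and positions are from RefSeq (GRCh38.p14), where 1576 of the 1921 listed names matched exactly, and gene context is from GENCODE release 29. They were not combined with hg19 positions.

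Computed here were CPM, the share of 5p with exact 95% intervals, log2 ratios with 0.5 counts added and exact conditional binomial intervals, and log2 changes of the 5p to 3p ratio with exact conditional odds ratio intervals (Python 3.11.15, scipy 1.17.1). Library scaling alternatives used edgeR 4.0.16 (TMM) and DESeq2 1.42.0 (size factors). Structures used ViennaRNA 2.7.2. Names were paired only where they differ in -5p and -3p alone, each arm with at least 30 counts over the libraries. The procedure was tested only on simulated counts with planted changes and counting error. These hold no variation between cultures or library preparations, so they do not check calls made from 1 library per strain. The members and lists were chosen with earlier results of these data known. Named were both arms, the 5 and 3 miRNAs nearest to them, the 3 largest called pairs in each direction, the preset lists and any name sharing a seed or 12 bases. The pairs setting the order of 5p shares were added after their values were seen.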

Additional observations from a re-analysis of the deposited data

How the results depend on the processing

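No paired analysis was possible because there was a single library for each strain, which also left no replicate to omit. The 5p to 3p ratio of miR-1307 does not depend on scaling. With 5 counts added its log2 change was 2.90 for subclone1 and 0.94 for subclone2, both relative to the parent, and -1.97 between the subclones, and with none added 3.01, 0.93 and -2.08. The log2 ratio of hsa-miR-1307-5p ranged from 2.98 to 3.09, from 0.73 to 0.90 and from -2.36 to -2.12 over all alternatives.

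The small ratios of hsa-miR-1307-3p left their counting interval under other scalings, with the same sign. In subclone1 against the parent they were 0.013 with median-of-ratios factors and 0.0072 with the total without the 10 most abundant miRNAs. In subclone2 against the parent they were -0.031 with TMM, -0.055 with median-of-ratios factors and -0.13 with that total. Between the subclones they were -0.049, -0.067 and -0.14. Between the subclones the ratio of hsa-miR-423-3p reversed, to 0.029 with TMM and 0.011 with median-of-ratios factors, since a scaling shifts all ratios of a comparison alike. That ratio had not been called. The calls of hsa-miR-152 and hsa-miR-331-3p between the subclones were lost with TMM (log2 -0.93 and -0.97) and with median-of-ratios factors (log2 -0.95 and -0.99).

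The numbers of calls followed the thresholds by construction. In the order of the comparisons above, called arm pairs numbered 3, 4 and 4 of 41 with at least 100 counts of each arm. Of the 75 pairs, 16, 18 and 15 were called at 1.5-fold and 2, 2 and 1 at 4-fold. Called pairs numbered 11 and 14 in the comparisons with the parent when 1 count of each arm sufficed. In subclone2 against the parent 5 remained of 9 with 5 counts added, and miR-222 (log2 change -0.86) was among those lost. Between the subclones 14 passed 2-fold when the interval was not used. Called miRNAs numbered 67, 75 and 33 with no minimum level, where all 1921 names entered, and 7, 6 and 1 with at least 100 CPM. At 1.5-fold they numbered 56, 53 and 35 and at 4-fold 3, 3 and 1. Another minimum also changes the number compared, so these counts cannot be set against the shares given above. A minimum taken over only the libraries compared, an alternative chosen after seeing the data, left 25, 20 and 11 called miRNAs and removed hsa-miR-1307-5p from subclone2 against the parent.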
